A study of Macaca mulatta with 24 samples.

Results

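The NOTCH receptors NOTCH1 to NOTCH4, their ligands JAG1 and DLL1, the nuclear factor RBPJ, the regulator DTX1 and the targets HES1 and HES5 were followed in whole blood of rhesus macaques before and after total body irradiation. Every non-control array probe annotated with the symbol of any of these 10 genes was taken, which gave 14 probes of 43603. They cover 8 of the 10 genes; no probe carried the symbol NOTCH3 or DTX1. Of the 14 probes, 8 from 7 genes reached a signal well above background on 4 or more arrays and were tested, among 27138 probes tested in all, and the other 6 were too dim.

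RNA came from globin-depleted PAXgene blood of Macaca mulatta of both sexes and of Chinese origin and was hybridized to 1-colour Agilent rhesus arrays. The groups were 7 arrays before irradiation (0 Gy; 4 male, 3 female), 4 at day 3 (3 male, 1 female), 6 at day 5 (4 male, 2 female) and 7 at day 7 (4 male, 3 female) after a single 4 Gy exposure, with no other agent. The labels call the source X-rays and the study's methods name a cobalt source. The animals were sampled repeatedly, though not every replicate number has an array on each day, and no sham-irradiated blood was among the arrays. Replicate numbers are read below as animals, which no label states.

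NOTCH receptors are single-pass membrane proteins that bind Jagged and Delta-like ligands on neighbouring cells. Binding exposes the receptor to ADAM proteases and then to gamma-secretase, which frees an intracellular domain that enters the nucleus, joins RBPJ and turns on targets such as the HES repressors. In blood formation the pathway is best known for committing lymphoid progenitors to the T cell lineage and for marginal zone B cells.

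The arrays differed technically and in cell composition. They lay on 6 slides scanned in 2 sessions: session 1 held 6 pre-irradiation and 6 day 7 arrays, and session 2 held pre-irradiation replicate 5, all day 3 and day 5 arrays and day 7 replicate 5. The median processed signal ranged from 16.7 on day 7 replicate 2 and 30.9 on day 5 replicate 2 to 106 on day 5 replicate 3. Of the blood-cell marker genes, 47 were measured. B cell markers were lower on each later day (7 of 7 tested; median log2 change -3.53, -3.92 and -3.67 in day order), and their summed level was 14.80 to 15.29 on the pre-irradiation arrays and 10.48 to 12.01 afterwards. Platelet markers were higher at day 3 (6 of 6 tested, median 3.01; summed level 17.52 to 18.26 against 14.02 to 15.78) and 2 of 6 were still called higher at day 5, and erythroid markers were lower at all 3 days (5 of 6 tested at each). No T cell, NK cell or progenitor marker passed the test on any day, 1 of 5 neutrophil markers was called higher at each day and 1 of 5 monocyte markers at days 3 and 5 (medians 1.04, 1.06 and 0.75 for neutrophil and 0.97, 0.81 and 0.87 for monocyte markers over the 3 days). The part of these shifts in the values below was not tested, and in bulk blood fewer cells of a type and less RNA per cell cannot be told apart.

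The probes decide what could be seen, so those on which the results turn are shown 5′ to 3′, in lower case, with the longest run (the first, where lengths tie) of a repeated unit of 1 to 3 bases in capitals where it spans at least 8 bases. The positions are those of the array annotation, which the file header ties to the rheMac2 build. Each probe is a 60-base oligo, and none shared a 20-base stretch with any other probe on the array. NOTCH1 probe 1 (chr15:1799838-1799897, plus strand) contains a 10-base gca repeat in capitals and a further run of the same unit and length in lower case, and NOTCH1 probe 2 (chr15:1790644-1790703, plus strand) lies 9194 bases away.
NOTCH1 probe 1: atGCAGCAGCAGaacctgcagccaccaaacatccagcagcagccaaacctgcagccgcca
NOTCH1 probe 2: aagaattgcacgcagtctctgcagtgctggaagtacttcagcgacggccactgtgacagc
NOTCH4 has a single probe (chr4:31817256-31817315, minus strand), and JAG1 probe 2 (chr10:43922608-43922667, minus strand) starts 1677 bases from JAG1 probe 1 (chr10:43920931-43920990, minus strand).
NOTCH4 probe 1: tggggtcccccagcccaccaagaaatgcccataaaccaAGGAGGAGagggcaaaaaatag
JAG1 probe 2: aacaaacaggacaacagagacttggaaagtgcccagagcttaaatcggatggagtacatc
HES5 is read by a bright probe 1 (chr1:5605129-5605188, minus strand) and a dim probe 2 (chr1:5606172-5606231, minus strand) that starts 1043 bases away. The first 30 bases of probe 1 and the whole of probe 2 show that the oligos differ in sequence.
HES5 probe 1, first 30 bases: gtgtgggtggatgcgtgtgggcatgactgt
HES5 probe 2: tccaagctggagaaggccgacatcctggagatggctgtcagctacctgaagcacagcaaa
The probes for NOTCH2 (chr1:122917884-122917943, minus strand), which is poor in G and C (35.0%), and DLL1 (probe 1, chr4:167303252-167303311, minus strand; 40.0%) complete the set.
NOTCH2 probe 1, first 30 bases: tgggaatcttagattctggtattgtggata
DLL1 probe 1, first 30 bases: ttacgcataagaagcatgcactgcctgaag

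Levels are log2 processed signals after each array was shifted to the median array, and a change is the difference of group means on that log2 scale. A probe was called when its adjusted p in limma, over all probes tested, was under 0.005. All comparisons with pre-irradiation share the same 7 arrays. Of the 8 member probes, 2 were called at day 3 (HES5 probe 1 and JAG1 probe 2), 3 at day 5 (NOTCH1 probe 1, NOTCH2 and JAG1 probe 2) and 1 at day 7 (NOTCH2). All of these calls were higher than pre-irradiation. NOTCH1 probe 1, NOTCH2 and JAG1 probe 2 were well above background on 1, 2 and 0 of the 7 pre-irradiation arrays and so passed the filter on dim probes through the later groups, in which they are high, and the direction of their calls is no support in itself. Among all probes tested, 13.5%, 16.7% and 10.9% were called on these days, and 5.44%, 7.16% and 3.6% were called higher. At a wider threshold of 0.05, chosen after the values were seen, 7, 6 and 2 of the 8 passed, against 35.7%, 35.5% and 27.6% of all probes. Among those that passed at days 3 and 5 were NOTCH1 probe 1, NOTCH2 and both JAG1 probes. JAG1 probe 1 was well above background on 1 of 7 pre-irradiation arrays and entered the test in the same way. These counts are therefore no support in themselves.

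The calls did not hold in a setting with another background correction. With normexp background correction, which adds an offset of 50 to every signal, none was called. This setting also started from the mean spot signal and the median background in place of the processed signal. It therefore does not isolate the background step. In this setting HES5 had a log2 change of 1.73 at day 3 (adjusted p = 0.047). NOTCH2 went to 0.86 at day 5 and 0.72 at day 7, NOTCH1 to 0.65 at day 5, and JAG1 probe 2 to 0.22 at day 3 and 0.69 at day 5. Single arrays also held some members under the threshold: NOTCH2 at day 3 passed without pre-irradiation replicate 4 (adjusted p = 0.0037) and DLL1 at day 3 without day 3 replicate 2 (adjusted p = 0.0033). NOTCH4 at day 3 passed without pre-irradiation replicate 5 or day 3 replicate 2, HES5 at day 5 without pre-irradiation replicate 5 or day 5 replicate 7, JAG1 probe 1 without day 3 replicate 4 at day 3 or day 5 replicate 3 at day 5, and DLL1 at day 7 without pre-irradiation replicate 4, with adjusted p from 0.0016 to 0.0049.

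**Figure D1:**
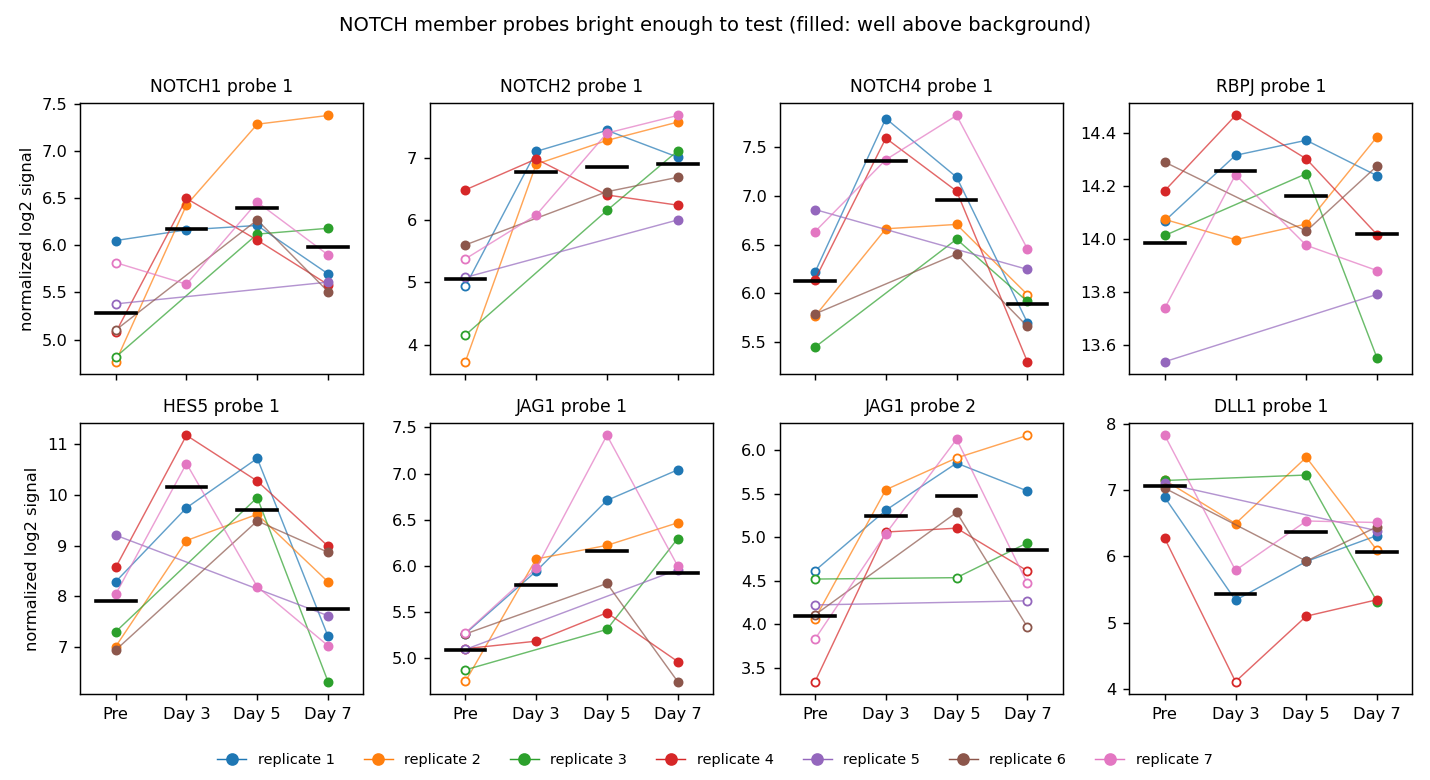
Normalized log2 signal (y axis) of the 8 tested probes before irradiation and at days 3, 5 and 7 (x axis), with each replicate number in its own colour and joined by a line, filled points well above background, open points not, and black bars the group means. NOTCH4 and HES5 were high at days 3 and 5 and at day 7 no array lay above the pre-irradiation range, while NOTCH2 stayed at 6.01 to 7.69 at day 7.

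NOTCH2, a receptor used by marginal zone B cells and myeloid cells, was the only member called at day 7. Its pre-irradiation signals were 3.72, 5.08 and 6.49 (lowest, median and highest of 7), and only 2 of the 7 were well above background. At day 3 the 4 arrays read 7.11, 6.91, 6.99 and 6.09. At day 5 the range was 6.16 to 7.45 with a median of 6.88, and at day 7 it was 6.01 to 7.69 with a median of 7.02. All 17 arrays after irradiation were well above background, and the overlap with the earlier group came from pre-irradiation replicate 4, at 6.49, which 5 of 7 day 7 arrays exceeded. The log2 change was 1.72 ± 0.45 (SE) at day 3 (adjusted p = 0.012, not called), 1.81 ± 0.40 at day 5 (adjusted p = 0.0033) and 1.86 ± 0.39 at day 7 (adjusted p = 0.0028), against a group in which 5 of 7 arrays were not well above background. Compared with its own pre-irradiation array, NOTCH2 was higher in 4 of 4, 5 of 6 and 6 of 7 animals, the exception at days 5 and 7 being the animal with number 4.

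The scan sessions bear on NOTCH2 because days 3 and 5 were scanned apart from all pre-irradiation arrays but replicate 5. With session as a block the change was 1.69, 1.78 and 1.86 at the 3 days. It was called at day 7 (adjusted p = 0.0034) but not at day 3 or day 5. At days 3 and 5 the block leaves pre-irradiation replicate 5 as the only reference. That array read 5.08, the median of its group, so the values for these days cannot show whether the session mattered. Within session 1 the day 7 change was 2.01 (adjusted p = 0.0049). With the replicate number as a block the calls at day 5 and day 7 were lost (adjusted p = 0.012 and 0.011), and in the fit of all 4 groups the day 3 change passed as well (adjusted p = 0.0033). Leaving out pre-irradiation replicate 1, 2, 3 or 5 or day 7 replicate 1, 2, 3 or 7 also ended the day 7 call, with adjusted p from 0.0057 to 0.0072. At day 5 the call was lost without pre-irradiation replicate 1, 2, 3, 5 or 7 or day 5 replicate 1, 2, 6 or 7 (adjusted p 0.0052 to 0.0094).

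NOTCH1, the receptor that drives T cell commitment, was called at day 5. Probe 1 was well above background on 1 of 7 pre-irradiation arrays, where it read 4.76, 5.10 and 6.05 (lowest, median and highest), and on every later array. At day 3 its signals were 6.16, 6.42, 6.49 and 5.59. At day 5 they ran from 6.05 to 7.28 with a median of 6.24, and all 6 lay above every pre-irradiation array. At day 7 they ran from 5.51 to 7.37 with a median of 5.70, and only 2 of 7 were above the pre-irradiation range. On the log2 scale the change was 0.88 ± 0.28 at day 3 (adjusted p = 0.0285), 1.11 ± 0.25 at day 5 (adjusted p = 0.0041) and 0.69 ± 0.29 at day 7 (adjusted p = 0.0926).

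The highest NOTCH1 signals at days 5 and 7 belonged to the 2 dimmest arrays, day 5 replicate 2 and day 7 replicate 2, which were shifted up by 1.27 and 2.03 log2 units in normalization. Without day 5 replicate 2 the day 5 change was 0.94, no longer called, and without day 7 replicate 2 the day 7 change was 0.46. The call held only when pre-irradiation replicate 1 or 7 was the array left out; leaving out any of the other 11 arrays gave adjusted p from 0.0051 to 0.0098. The replicate block (1.13, adjusted p = 0.015) and the session block (1.02, adjusted p = 0.26) ended it as well. NOTCH1 probe 2 added no comparison, since it was well above background on 1 array of 24, day 3 replicate 1, at 7.49.

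NOTCH4, a receptor best known from endothelium, was not called in any comparison. The pre-irradiation signals ran from 5.45 to 6.86 with a median of 6.14, all well above background. The day 3 arrays read 7.80, 6.66, 7.59 and 7.37, and the day 5 arrays ran from 6.40 to 7.83 with a median of 6.88. At day 7 the range was 5.30 to 6.46 with a median of 5.92, so that every day 7 array was below every day 3 array. The log2 change from pre-irradiation was 1.23 ± 0.30 at day 3 (adjusted p = 0.0078), 0.83 ± 0.27 at day 5 (adjusted p = 0.0272) and -0.23 ± 0.24 at day 7 (adjusted p = 0.504). None of these passed the threshold, but with the replicate block the day 5 change was 0.96 with an adjusted p of 0.0014, and in the fit of all 4 groups the day 3 change passed (adjusted p = 0.0026). NOTCH4 was higher than in the same animal's pre-irradiation blood in 4 of 4 animals at day 3 and 6 of 6 at day 5, and in 2 of 7 at day 7.

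The direct comparison of day 7 with day 3 gave NOTCH4 a log2 change of -1.46 ± 0.27 (adjusted p = 0.0067), and that of day 7 with day 5 gave -1.06 ± 0.25 (adjusted p = 0.0397). Day 7 was lower than the same animal's earlier array in 4 of 4 and 6 of 6 animals. Among all probes, 1.28% were called between day 7 and day 3 and 0.00368% between day 7 and day 5. The day 3 and day 5 arrays and 6 of the 7 day 7 arrays were scanned in different sessions. The summed platelet markers followed a like course, at 17.52 to 18.26 on day 3, 15.73 to 16.19 on day 5 and 14.30 to 15.91 on day 7 against 14.02 to 15.78 before irradiation, and their part in these values was not tested. Pre-irradiation replicate 5, the only pre-irradiation array of the later session, had the highest NOTCH4 signal of its group (6.86), and with session as a block the changes from pre-irradiation were 0.50 at day 3 and 0.10 at day 5.

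Among the ligands, JAG1, which encodes Jagged 1, was read by 2 probes, both with higher mean signals after irradiation. Both entered the test through the later groups, in which they are high, so their shared direction is no support in itself. Probe 2 was well above background on 0 of 7 pre-irradiation arrays (3.34, 4.11 and 4.62 as lowest, median and highest). At day 3 it read 5.31, 5.55, 5.06 and 5.04, and at day 5 it ran from 4.54 to 6.13 with a median of 5.57. All 4 day 3 arrays and 5 of 6 day 5 arrays lay above every pre-irradiation array. The fitted log2 change was 1.14 ± 0.24 at day 3 (adjusted p = 0.0036) and 1.37 ± 0.27 at day 5 (adjusted p = 0.0017). No fold is given, because the pre-irradiation level was not well above background and signals of this probe as high as 5.91 at day 5 and 6.17 at day 7 were not well above it either. At day 7 the range was 3.97 to 6.17, 2 of 7 arrays were well above background, and the change was 0.75 ± 0.31 (adjusted p = 0.0868).

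JAG1 probe 1 was well above background on 1 of 7 pre-irradiation arrays (4.75 to 5.28, median 5.10) and on all 17 later ones. It read 5.94, 6.08, 5.19 and 5.97 at day 3, 5.31 to 7.41 with a median of 6.02 at day 5, and 4.75 to 7.04 with a mean of 5.93 at day 7. All 6 day 5 arrays were above the pre-irradiation range, as were 3 of 4 at day 3 and 5 of 7 at day 7. The difference of means on the log2 scale was 0.70 ± 0.20, 1.07 ± 0.29 and 0.84 ± 0.30 (adjusted p = 0.0164, 0.0116 and 0.0505), so this probe was not called. The 2 probes correlated with r = 0.79 over the 24 arrays, a description in which array shifts and the day differences are shared. For probe 2 the replicate block ended both calls (1.28, adjusted p = 0.012 at day 3; 1.39, adjusted p = 0.0062 at day 5), as did the session block (1.02 and 1.25, adjusted p = 0.21 and 0.20), and the fit of all 4 groups ended that of day 3 (adjusted p = 0.0147). Leaving out day 5 replicate 1 took the day 5 adjusted p to 0.0052, and the day 3 call was lost without pre-irradiation replicate 2, 5, 6 or 7 or without any single day 3 array (adjusted p 0.0055 to 0.0126).

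DLL1, a Delta-like ligand, was the member with lower signals after irradiation. The pre-irradiation arrays read 6.27 to 7.83 with a median of 7.10 for probe 1, all well above background. At day 3 the signals were 5.34, 6.50, 4.11 and 5.79, and the lowest of these was not well above background. At day 5 they spread from 5.10 to 7.50 with a median of 6.23, and at day 7 from 5.32 to 6.51 with a median of 6.32. The groups overlapped only through pre-irradiation replicate 4 at 6.27 on day 3 and day 7, and 3 of 4 day 3 arrays and 3 of 7 day 7 arrays fell below it. Its log2 change was -1.63 ± 0.39 at day 3 (adjusted p = 0.0081), -0.69 ± 0.36 at day 5 (adjusted p = 0.147) and -1.001 ± 0.25 at day 7 (adjusted p = 0.0092), none of them called. Without day 5 replicate 4 the day 5 change was -0.44. DLL1 was below the same animal's pre-irradiation signal in 4 of 4, 4 of 6 and 7 of 7 animals, and with the replicate block the day 7 change passed (adjusted p = 0.0047), as it did with sex as a covariate (adjusted p = 0.0037). Probes 2 and 3 were well above background on 3 and 1 of 24 arrays.

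RBPJ, the DNA-binding partner of all NOTCH receptors, varied over a range of less than a unit. Its signals ran from 13.54 to 14.29 (median 14.07) before irradiation, were 14.32, 14.00, 14.47 and 14.24 at day 3, and ran from 13.98 to 14.37 (median 14.15) at day 5 and 13.55 to 14.39 (median 14.02) at day 7. All 4 groups overlapped. In log2 terms the change was 0.27 (95% interval -0.11 to 0.65), 0.18 (-0.14 to 0.49) and 0.03 (-0.33 to 0.39) at the 3 days, with adjusted p of 0.248, 0.370 and 0.903. With session as a block the change was 0.72 at day 3 (adjusted p = 0.167) and 0.63 at day 5 (adjusted p = 0.165), and at day 5 it was -0.35 with normexp correction, none of them called.

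HES5, a transcriptional repressor induced directly by NOTCH, was called at day 3. Probe 1 read 6.94 to 9.21 with a median of 8.04 before irradiation, well above background on all arrays. At day 3 it read 9.75, 9.10, 11.18 and 10.62. At day 5 it ran from 8.19 to 10.72 with a median of 9.78, and at day 7 from 6.32 to 8.99 with a median of 7.62. Of the day 3 arrays 3 of 4, and of the day 5 arrays 5 of 6, were above every pre-irradiation array, and pre-irradiation replicate 5, at 9.21, exceeded day 3 replicate 2. The log2 change was 2.25 ± 0.49 at day 3 (adjusted p = 0.0048; 4.77-fold), 1.80 ± 0.44 at day 5 (adjusted p = 0.0059) and -0.15 ± 0.45 at day 7 (adjusted p = 0.839). With the replicate block the day 5 change also passed (2.02, adjusted p = 0.0029), as it did with 75th percentile normalization, the series matrix values or the stricter filter on dim probes (lowest adjusted p 0.0032). The day 3 call was lost with quantile normalization (adjusted p = 0.0053), sex as a covariate (0.0061), no filter on dim probes (0.0079) and the slide as a block (0.172).

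HES5 was higher than the same animal's pre-irradiation signal in 4 of 4 animals at day 3, by 1.46 to 2.61, and in 6 of 6 at day 5, by 0.15 to 2.65, and in 3 of 7 at day 7. Day 7 differed from day 3 by -2.40 ± 0.54 (adjusted p = 0.0143), with 7 of 7 arrays below every day 3 array, and from day 5 by -1.95 ± 0.48 (adjusted p = 0.0451). With session as a block the change from pre-irradiation was 0.96 at day 3 (adjusted p = 0.53) and 0.50 at day 5 (adjusted p = 0.76), and the pre-irradiation array of that session, replicate 5, was the highest of its group. The day 3 call stood close to the threshold and was kept only when pre-irradiation replicate 5 or day 3 replicate 2 was left out; leaving out any of the other 9 arrays gave adjusted p from 0.0062 to 0.0207. HES5 probe 2 was well above background on 1 of 24 arrays, day 5 replicate 4, at 5.23. It read 2.60 to 3.37 on the day 3 arrays, where probe 1 read 9.10 to 11.18, and 3.32 to 3.86 before irradiation. Probe 2 thus did not show the rise, which rests on probe 1 alone.

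HES1, the NOTCH target most widely used as a readout, could not be compared. Its probe 1 was well above background on 2 of 24 arrays, day 5 replicates 1 and 7 at 6.16 and 4.76, and its probe 2 on none, so that no group but day 5 held an array well above background.

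**Figure D2:**
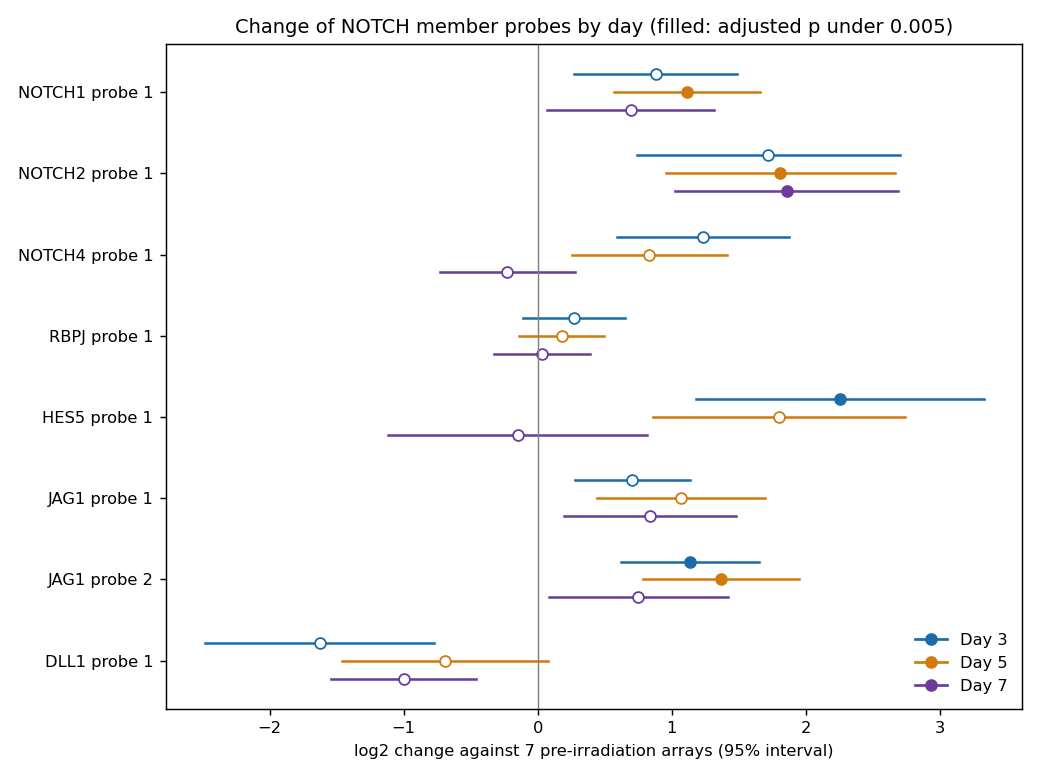
Log2 change against the 7 pre-irradiation arrays (x axis, 95% interval) of the 8 tested probes (y axis) at days 3, 5 and 7, filled where the adjusted p was under 0.005. HES5 went from 2.25 at day 3 to -0.15 at day 7 and NOTCH4 from 1.23 to -0.23, NOTCH2 stayed between 1.72 and 1.86, and DLL1 lay below 0 at all 3 days.

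**Figure D3:**
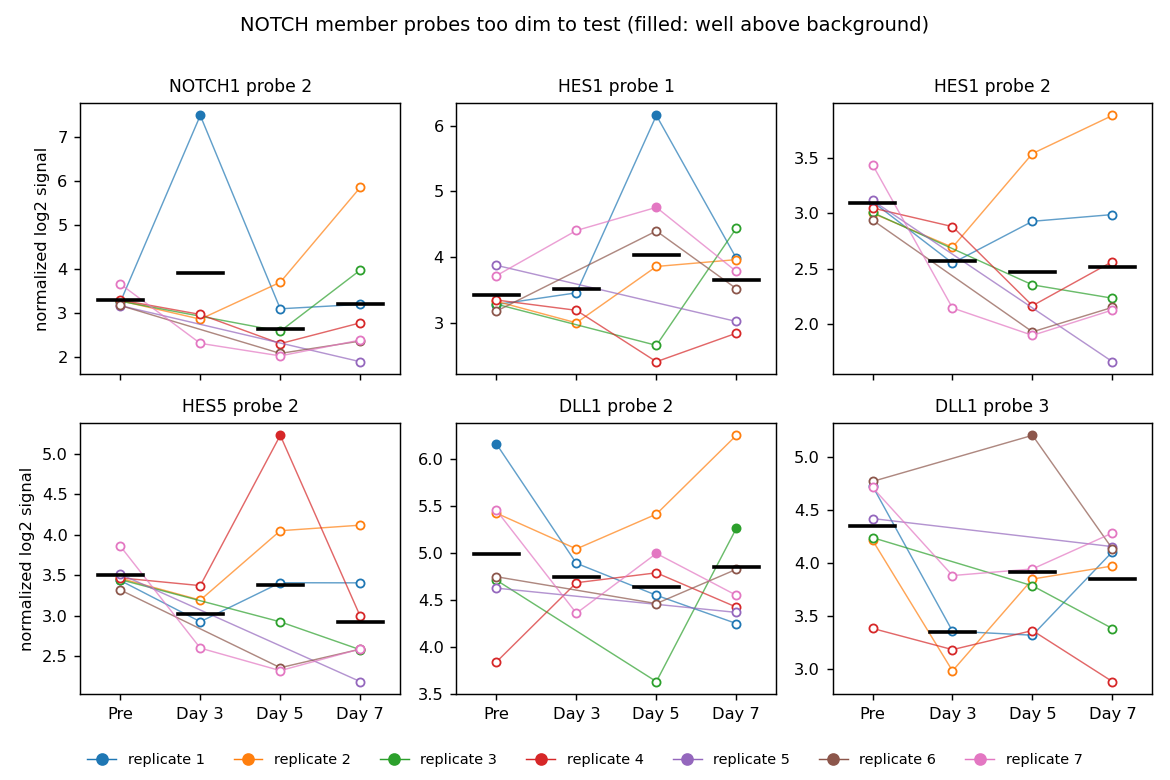
Normalized log2 signal (y axis) of the 6 probes too dim to test, by group (x axis), in the same form. Nearly all points are open, that is not well above background, and the filled points are single arrays such as day 3 replicate 1 for NOTCH1 probe 2 at 7.49.

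No member probe was called between any pair of days after irradiation in limma. Among all probes 0.0184% were called between day 5 and day 3. At an unadjusted p under 0.05, 0 members passed between day 5 and day 3 and 2, NOTCH4 and HES5, between day 7 and each earlier day, while over all probes 2726 of 27132 passed between day 5 and day 3, 8870 of 27132 between day 7 and day 3 and 5632 of 27138 between day 7 and day 5. At an adjusted p under 0.05, NOTCH4 and HES5 were the 2 members that passed between day 7 and day 3 (16.1% of all probes) and between day 7 and day 5 (3.03%), and no member passed between day 5 and day 3 (0.177%). Fitting all 4 groups together, an alternative chosen after the values were seen, called 2 member probes between day 7 and day 3, against 8.02% of all probes.

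The rest of the pathway was read from a list of 82 NOTCH ligands, receptors, processing enzymes, regulators, nuclear factors and targets, each gene by its brightest probe. A probe was found for 62 and 56 were tested. At day 3, 13 were called, 8 higher and 5 lower (23.2%, against 13.4% of 10545 named genes, 5.89% higher and 7.54% lower), with a median log2 change of 0.50 against 0.00 over all named genes. At day 5, 16 were called, 7 higher and 9 lower (28.6%, against 15.3% of 10548, 6.25% higher and 9.05% lower), with a median of 0.43 against -0.01. At day 7, 7 were called, 1 higher and 6 lower (12.5%, against 9.84%, 2.7% higher and 7.14% lower), with a median of 0.02 against -0.01. Leaving the members out, 12 of 49, 14 of 49 and 6 of 49 were called, and at day 7 all 6 were lower. With the replicate block 5 were called at day 3, 18 on day 5 and 8 on day 7, and with the session block 0, 1 and 7. Leaving out single arrays moved the day 3 count to 5 without day 3 replicate 1, to 6 without day 3 replicate 7 or pre-irradiation replicate 7, to 7 without day 3 replicate 4 or pre-irradiation replicate 3, and to 8 without pre-irradiation replicate 2. The day 7 count went to 3 without pre-irradiation replicate 2 or day 7 replicate 7. For the blocks and the arrays left out, the share of all named genes called is not given. These moves therefore cannot be read as particular to the pathway.

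Among the enzymes that process the receptor, 3 of 11 genes were called on day 3, 3 on day 5 and 2 on day 7, that is 27.3%, 27.3% and 18.2% against 13.4%, 15.3% and 9.84% of all named genes. NCSTN, the nicastrin subunit of gamma-secretase, rose from a pre-irradiation range of 12.85 to 13.66 to 13.94 to 14.62 at day 3 with no overlap (log2 change 1.19 ± 0.20, adjusted p = 0.0011). ADAM17, a protease that sheds membrane proteins, rose by 1.06 at day 3 and 0.88 ± 0.15 at day 5 (adjusted p = 0.00046), all 6 day 5 arrays (9.61 to 10.25) above the pre-irradiation range of 8.77 to 9.22. The gamma-secretase subunit APH1A was lower at all 3 days, by a log2 of -1.01, -1.46 and -0.85, and the catalytic subunit gene PSEN2 was called lower at days 5 and 7 (-0.87 and -0.80).

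Among ubiquitin and endocytic regulators, 27.3% of 11 were called on day 3, 36.4% on day 5 and 9.09% on day 7, against the same 13.4%, 15.3% and 9.84%. RBX1, the RING subunit of cullin ubiquitin ligases, had the lowest change of any listed gene at days 5 and 7. Its level was 16.09 to 17.10 before irradiation. On day 3 it was 14.34 to 14.98, on day 5 13.13 to 14.57 and on day 7 12.86 to 14.81, with no overlap between the pre-irradiation arrays and any later one. The log2 change was -1.90 ± 0.24, -2.65 ± 0.24 and -2.80 ± 0.27, and it stayed called when any single array was left out and with the replicate block, and at day 7 within session 1 (-2.76). With the session block the day 3 change was -2.25 and was not called. The summed erythroid markers also fell, from 18.53 to 19.53 before irradiation to 14.92 to 16.63 on day 3. They were at 11.90 to 13.64 on day 5 and 11.24 to 17.81 on day 7, and their part in the RBX1 values was not tested. DTX3, a relative of the Deltex ligase DTX1, fell by 1.36 at day 3 and 1.39 at day 5 on the log2 scale, and FBXW7, which targets the NOTCH intracellular domain for degradation, was called higher on both days (0.78 and 0.71).

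Of the nuclear complex and coactivators 1 of 9 was called on day 3, 2 on day 5 and 0 on day 7, all higher (11.1%, 22.2% and 0%). Of the corepressors 3 of 11 (2 higher), 4 (1 higher) and 3 (0 higher) were called, or 27.3%, 36.4% and 27.3%, where all named genes gave 13.4%, 15.3% and 9.84%. CREBBP, a histone acetyltransferase recruited by the NOTCH complex, rose by 1.16 ± 0.24 at day 5 (adjusted p = 0.0023; 7.58 to 8.71 against 6.52 to 7.87), a call lost without pre-irradiation replicate 1, 2, 3, 4 or 7 or day 5 replicate 2, 6 or 7 (adjusted p 0.0053 to 0.0063), and the related EP300 was higher at days 3 and 5 (0.68 and 0.86). Of the corepressors, TBL1X rose by 1.09 ± 0.16 at day 3 (adjusted p = 0.00063) and CTBP2 by 0.98 ± 0.18 at day 5 (adjusted p = 0.00093). TLE1, a Groucho-type corepressor, fell by 1.69 ± 0.32 at day 5 and 2.08 ± 0.23 at day 7, where its 7 arrays (8.68 to 9.49) lay below every pre-irradiation array (10.34 to 11.76). HDAC1, a histone deacetylase, fell by 1.30 ± 0.25 at day 7 (adjusted p = 0.0016; 5.87 to 7.40 against 7.47 to 8.23), and within session 1 its adjusted p was 0.006.

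Among the targets, 3 of 8 were called on day 3, 1 on day 5 and 0 on day 7 (13.4%, 15.3% and 9.84% of named genes were). PTCRA, which encodes the invariant chain of the pre-T cell receptor, rose by 3.06 ± 0.65 at day 3 (adjusted p = 0.0041): the pre-irradiation arrays lay at 8.11 to 11.93 and the day 3 arrays at 12.31 to 14.27. The day 5 arrays lay at 9.45 to 12.47 and the day 7 arrays at 8.67 to 11.20. The summed platelet markers were likewise highest at day 3 (17.52 to 18.26), and their part in this result was not tested. PTCRA was lower at day 7 than at day 3 by -3.10 ± 0.50 (adjusted p = 0.0043), the only listed gene called between these days (1.61% of named genes were). Its day 3 call was lost when any array but pre-irradiation replicates 2 and 5 was left out (adjusted p 0.0063 to 0.0132). MYC, a growth regulator and NOTCH target in T cells, fell by 2.56 ± 0.37 at day 3 (adjusted p = 0.00061; 9.25 to 9.89 against 11.22 to 13.47) and by 1.96 ± 0.41 at day 5 (adjusted p = 0.0022), where leaving out pre-irradiation replicate 2 or 4 or day 5 replicate 1, 2 or 7 ended the call (adjusted p 0.0052 to 0.0064).

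The replicate block, in which same-numbered arrays are compared, ended the day 3 calls of NCSTN and TBL1X (adjusted p = 0.011 for both), MYC and DTX3 (0.0068 for both) and the day 5 call of ADAM17 (0.00502), with log2 changes of 1.30, 1.08, -2.39, -1.37 and 0.88. With the session as a block none of the named day 3 calls was kept, at log2 changes of 2.15 for PTCRA (1.59 with the slide as a block), 1.15 for NCSTN, 0.80 for TBL1X, -2.05 for MYC and -1.40 for DTX3, and of the named day 5 calls only that of RBX1 was kept (-2.996, adjusted p = 0.0028). Normexp correction gave CREBBP 0.71, CTBP2 0.44 and ADAM17 0.49 at day 5 and HDAC1 -0.55 at day 7, none of them called. With this correction the day 3 calls of NCSTN, TBL1X, MYC, RBX1 and DTX3 were lost too, and that of PTCRA was kept.

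**Figure D4:**
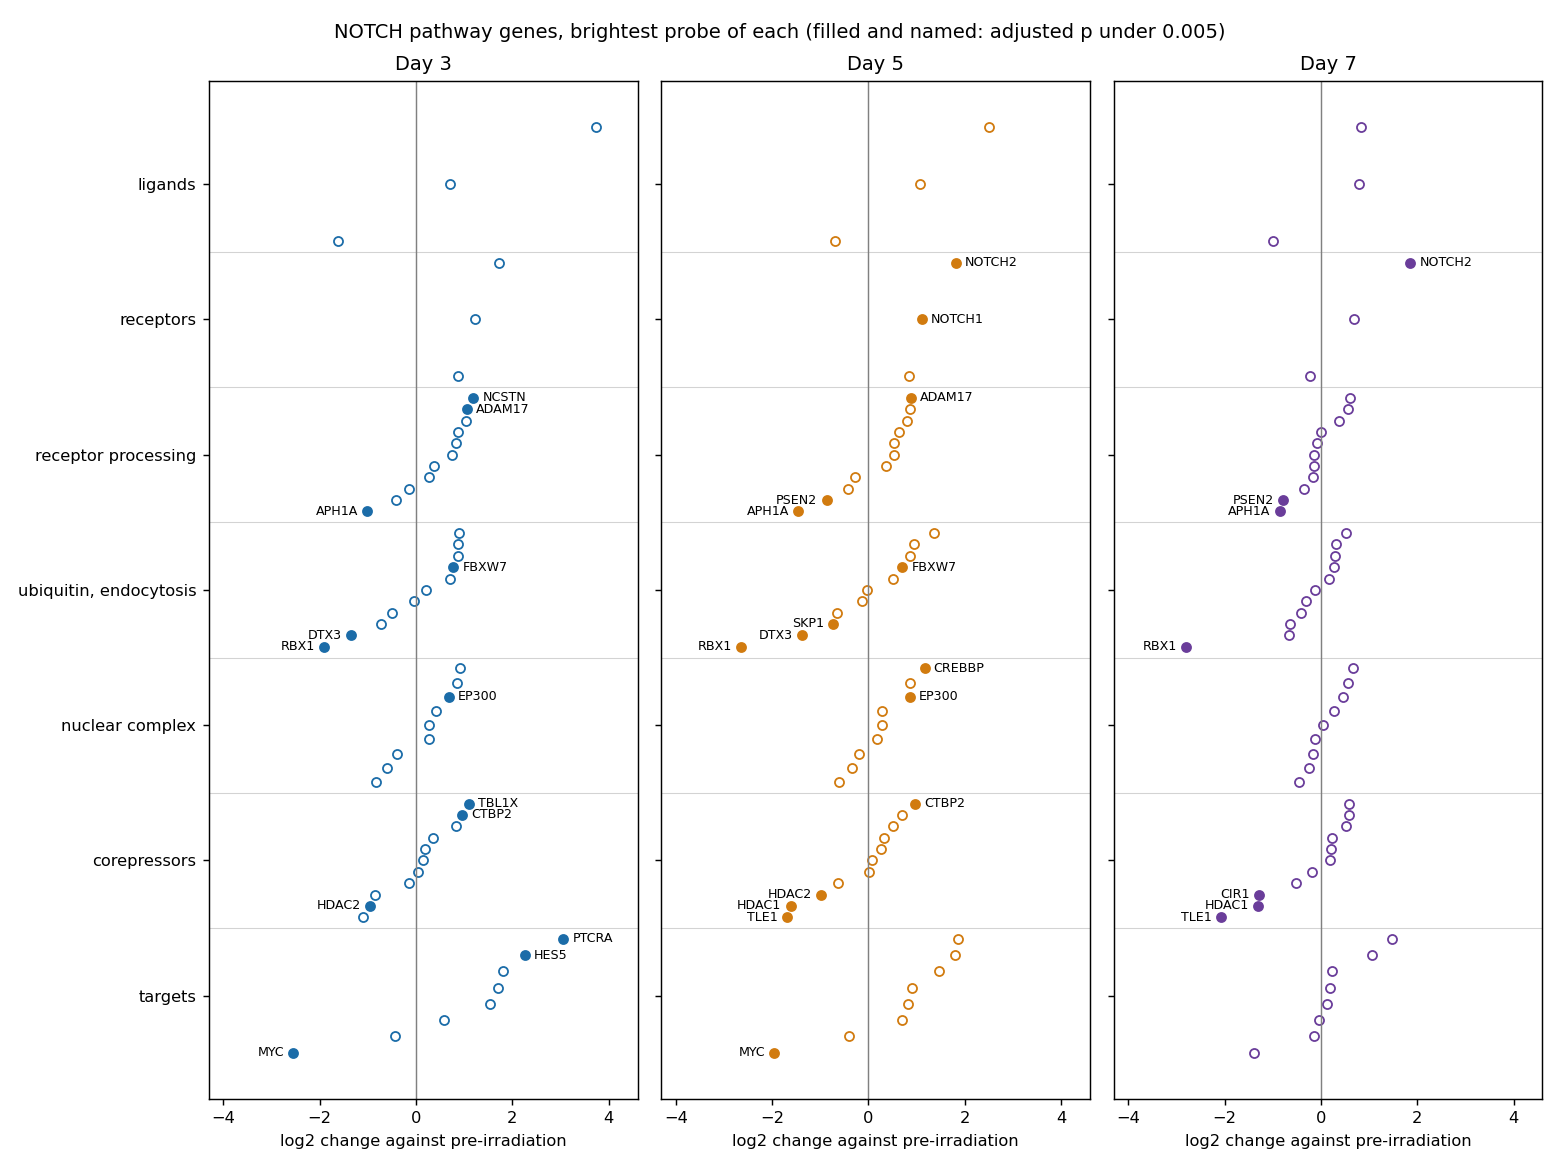
Log2 change against pre-irradiation (x axis) of the 56 tested NOTCH pathway genes at days 3, 5 and 7 (panels), grouped by role (y axis) and ordered by change within a role, filled and named where the adjusted p was under 0.005. Calls lie on both sides of 0 at days 3 and 5, and at day 7 only NOTCH2 lies to the right while 6 genes lie to the left.

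The genes whose signal ran most nearly parallel to a member across the 24 arrays differed from member to member. Over 10547 named genes, NBEAL2 (r = 0.95) and ATXN7 (r = 0.91) were closest to NOTCH2. BMP3 (r = 0.94) was among the closest to HES5, and GOLPH3 (r = 0.88) and TMPPE (r = 0.86) were closest to NOTCH1. MAMU-A (r = 0.86) and TSC22D4 (r = 0.86) were closest to NOTCH4, TGFBR2 (r = 0.88) and SLC25A27 (r = 0.83) to JAG1 probe 1, IGSF6 (r = 0.82) and PLEKHM1 (r = 0.78) to RBPJ, and TWSG1 (r = 0.79) and RNF39 (r = 0.77) to DLL1. Among the members, r was 0.71 between NOTCH1 and NOTCH2, 0.64 between NOTCH4 and HES5, and from -0.46 to -0.14 between DLL1 and each of the others. These values describe arrays that share animals, days and scan sessions.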

How the data were processed

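Globin-depleted whole-blood RNA was measured on 24 1-colour Agilent arrays. The deposited scanner output gives the processed signal as an intensity on a linear scale, made by the authors with Agilent Feature Extraction 10.7 per the labels (12.0.2.2 per the file headers), with background subtracted. The authors' deposited series matrix holds log2 values normalized to the median array in BRB ArrayTools. It equals log2 of the processed intensity plus 1 constant per array for the 18497 probes matched. The labels and file headers give a rhesus array design, whereas the study's methods name a human array.

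Here, log2 of the processed signal was taken with outlier spots left out and the spots of a probe averaged, and a constant per array was added so that its median difference from the median array (pre-irradiation replicate 2) was 0. Probes with 4 or more of the 24 arrays well above background were tested with limma 3.58.1 in R 4.3.3 (with the data.table package, version 1.17.8), day against pre-irradiation or day against day, two-sided, with Benjamini-Hochberg adjustment over all probes tested and a call at an adjusted p under 0.005, the threshold of the study. The fit was tested on simulated data. Intervals are 95%. Python 3.11.15, pandas 2.3.3, numpy 2.4.6 and matplotlib 3.10.9 were used for reading and drawing.

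Same replicate numbers were taken to mark the same animal, since the study sampled animals repeatedly, although no label states it, and same-numbered arrays deviated together (r 0.134 to 0.414 between pre-irradiation and day 3, 0.171 to 0.454 with day 5, and 0.132 to 0.439 with day 7), so a fit with the replicate number as a block was run as an alternative. Other alternatives were the normalization, the background correction, the filter on dim probes, the series matrix values, all groups in a single fit, the slide, scan session or sex as a term, a threshold of 0.05, and leaving out each array. Named beside the members are, per day, up to 3 pathway genes called with the largest rise and 3 with the largest fall, and the 2 genes most like each member, of which 1 is not reported here. APH1A, PSEN2, EP300 and FBXW7 lie outside this rule and were named after their values were seen. The members and lists were chosen with earlier results of these data known. Array number limits the precision.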

Additional observations from a re-analysis of the deposited data

Results flagged for a closer look

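Single arrays stood apart from the rest of their group for 5 of the 39 probe and group combinations checked, by a gap that is unusually wide for the group's range; chance gives about 1 in 20. For NOTCH1 probe 1 these were day 5 replicate 2 (7.28) and day 7 replicate 2 (7.37), the arrays with the lowest median processed signals (30.9 and 16.7). For NOTCH1 probe 2 it was day 3 replicate 1 (7.49), the only array on which this probe was well above background. JAG1 probe 1 was low on day 3 replicate 4 (5.19), and DLL1 probe 3 was high on day 5 replicate 6 (5.21), the only array on which it was well above background.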

How the results depend on the processing

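No called value of a member or of a pathway gene named by the rule changed sign in the alternatives run; the other called pathway genes were not followed one by one. Among values not called, RBPJ at day 5 went from 0.18 to -0.35 and JAG1 probe 2 at day 7 from 0.75 to -0.03 with normexp, and RBPJ (0.03) and HES5 (-0.15) at day 7 changed sign within session 1 (-0.0031 and 0.09) and without single arrays (to -0.04 and 0.09). Of 258 member values under an alternative setting, 222 kept their side of the threshold and 36 changed it, and for the named pathway genes the figures were 125 and 37 of 162. The counts of calls that follow come without the share of all probes called in the same setting. Such shares are given above only for the 0.05 threshold and the fit of all 4 groups. A changed count in the other settings therefore cannot be read as particular to these genes. The count of member probes called at day 3 (2) was 0 with quantile normalization, with normexp background correction, with scan session, slide or sex as a term and with no filter on dim probes, and 1 with the filter requiring every array of a group. At day 5 (3) it was 0 with normexp or the session block and 1 with no filter, and at day 7 (1) it was 0 with normexp and 2 with sex as a covariate. At the 0.05 threshold it was 7, 6 and 2 on the 3 days and 2 between day 7 and each earlier day. Leaving out single arrays gave 0 to 3 on day 3 and on day 5, 0 to 2 on day 7 and 0 to 1 between day 7 and day 3 (1 without day 3 replicate 2), and 0 for the other pairs of days. The replicate block gave 1, 2 and 1 member probes on days 3, 5 and 7, and 5 pathway genes at day 3 in place of 13. Pathway counts were 1 with normexp at each day, 0 at day 3 and 1 at day 5 with the session block, 0 with slide and 8 with sex or no filter at day 3, and 3 within session 1 at day 7; without single arrays they ran from 5 to 13, 11 to 17 and 3 to 9. The fit of all 4 groups, added later, called 2 member probes between day 7 and day 3. The slide block could not be fitted at day 5. For the sex by day 7 interaction, 0 of 8 member probes passed an adjusted p of 0.05 in limma (lowest 0.598; 0 at an unadjusted p under 0.05). Normexp correction, which adds 50 to each signal, left no member called. It moved NOTCH2 at day 7 from 1.86 to 0.72 and HES5 at day 3 from 2.25 to 1.73. NCSTN at day 3 went from 1.19 to 1.31 and RBX1 at day 5 from -2.65 to -3.13. The larger NCSTN value was nevertheless no longer called (adjusted p = 0.12 in limma). The day 3 calls of TBL1X, MYC, RBX1 and DTX3 were lost as well, while that of PTCRA was kept (adjusted p = 0.0031). The cause of these moves was not tested. Signal over background limits NOTCH1, NOTCH2 and JAG1 among the tested members, since 1 of 7, 2 of 7 and at most 1 of 7 pre-irradiation arrays were well above background.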
